A study of Mus musculus with 4 samples.

Results

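Hox genes encode homeodomain transcription factors that lie in 4 chromosomal clusters in the mouse, Hoxa, Hoxb, Hoxc and Hoxd, and are numbered from 1 to 13 by paralogue group. Genes with low numbers are switched on further forward in the embryo, in the hindbrain, the branchial arches and the neck, and genes with high numbers further back, in the trunk, limbs and tail. Neural crest that builds the face and palate in front of the second arch is known to lack Hox expression, and loss of Hoxa2 in mice gives the second arch skeleton a pattern like that of the first. The Hox complement of a dissected sample is therefore a coordinate of where along the body axis its cells lay.

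The members were the genes with a transcript cluster annotated to a single symbol made of Hox, a letter from a to d and a number. There were 36 such genes on 37 clusters, among 22180 named genes on the array, and clusters of 1 gene were averaged. Hox genes found only on clusters shared with another gene, Hoxa11 and Hoxd4, were not analysed here. By cluster the members were 9 Hoxa, 10 Hoxb, 9 Hoxc and 8 Hoxd genes, and by paralogue number 10 lay in groups 1 to 4, 11 in groups 5 to 8 and 15 in groups 9 to 13.

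RNA of mouse embryos was hybridised to 4 Affymetrix Mouse Gene 2.0 ST arrays, 1 for each combination of genotype and tissue. The groups were palatal shelves of Tbx1 knockout (KO) embryos at E13.5, palatal shelves of wild-type (WT) embryos at E13.5, heads of KO embryos at E12.5 and heads of WT embryos at E12.5, where E is the embryonic day. All embryos had a mixed C57BL/6J x FVB/N background. Tbx1 encodes a T-box factor of the pharyngeal apparatus, and the sources used here do not describe the knockout allele, any pooling of embryos or the level at which heads were cut. Tissue and stage changed together, so a difference between shelves and head cannot be told apart from a difference between E13.5 and E12.5. Values are log2 levels made with RMA, a method that corrects background, gives all arrays 1 common distribution and summarises probes. Levels of different genes depend on their probes as well as on their RNA, so genes are placed against marks on the array and compared between arrays, not with each other. The precision is limited by the number of arrays.

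Array medians over named genes lay between 6.15 and 6.18, and Pearson's r between arrays over all clusters between 0.973 and 0.991. Tbx1, the targeted gene, was at 6.18 in KO shelves and 7.39 in WT shelves, and at 6.25 in KO heads and 6.83 in WT heads. Marker lists were read against the tissue labels of the sample titles, while 1 other label field calls the E13.5 samples heads. The lists were chosen with earlier results of these data known, so they are no independent check of the labels. Here and below, a gene rose or fell in the shelves where its shelves minus head difference had an adjusted p under 0.05 in the limma fit of all named genes, in which 5.02% rose and 6.13% fell. Of 19 measured genes of palatal mesenchyme 13 rose in the shelves and 1 fell, and of 17 genes of oral epithelium 15 rose and 0 fell. Sim2, a transcription factor of palate mesenchyme, was at 10.37 in KO shelves and 10.05 in WT shelves, against 7.79 in KO heads and 8.09 in WT heads.

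Promoter sequences are shown for the 2 Hox genes whose level differed most between shelves and head, Hoxa2 and Hoxa5, for Hoxd3 as a member of paralogue group 3, and for Hoxa13 as a posterior gene of the same cluster as Hoxa2 that did not differ. Each is 300 bases of RefSeq sequence (GRCm38.p6), from 250 bases before the annotated start to 50 after it, on the gene's strand. Capitals mark 2 motifs searched on both strands, TGATNNAT, the form of a joint site for HOX proteins and their PBX partners, and AGGTCA, the core element bound by retinoic acid receptors. The windows are chr6:52164782-52165081 (minus strand) for Hoxa2, chr6:52204538-52204837 (minus strand) for Hoxa5, chr2:74711743-74712042 (plus strand) for Hoxd3 and chr6:52260831-52261130 (minus strand) for Hoxa13.
Hoxa2: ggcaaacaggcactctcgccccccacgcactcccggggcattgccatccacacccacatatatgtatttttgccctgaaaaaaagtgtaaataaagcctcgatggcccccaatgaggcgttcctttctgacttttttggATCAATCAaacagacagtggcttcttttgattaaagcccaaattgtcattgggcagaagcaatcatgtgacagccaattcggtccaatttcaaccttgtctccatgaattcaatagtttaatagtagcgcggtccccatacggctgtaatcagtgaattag
Hoxa5: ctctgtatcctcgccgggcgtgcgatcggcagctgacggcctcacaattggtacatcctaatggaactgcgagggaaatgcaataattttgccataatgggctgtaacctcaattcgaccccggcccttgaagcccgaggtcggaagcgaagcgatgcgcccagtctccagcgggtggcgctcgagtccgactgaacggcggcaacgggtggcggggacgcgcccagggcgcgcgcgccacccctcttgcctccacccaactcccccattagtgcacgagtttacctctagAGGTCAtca
Hoxd3: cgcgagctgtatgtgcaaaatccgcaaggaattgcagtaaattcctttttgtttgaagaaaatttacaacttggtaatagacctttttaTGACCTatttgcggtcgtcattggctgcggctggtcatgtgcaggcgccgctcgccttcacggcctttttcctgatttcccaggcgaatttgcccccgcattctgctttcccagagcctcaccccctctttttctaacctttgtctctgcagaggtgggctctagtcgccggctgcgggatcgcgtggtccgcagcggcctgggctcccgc
Hoxa13: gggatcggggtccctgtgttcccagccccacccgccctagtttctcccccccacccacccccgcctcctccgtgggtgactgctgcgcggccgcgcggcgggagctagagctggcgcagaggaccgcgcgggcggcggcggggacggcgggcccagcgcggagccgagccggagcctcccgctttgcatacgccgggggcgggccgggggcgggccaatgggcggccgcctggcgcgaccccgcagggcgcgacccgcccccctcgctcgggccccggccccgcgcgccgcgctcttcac

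The Hoxa2 window holds 1 TGATNNAT match and no AGGTCA, the Hoxa5 and Hoxd3 windows hold 1 AGGTCA each, and the Hoxa13 window holds neither. Promoter windows were found for 20 of the 36 Hox genes, 22 windows in all. TGATNNAT matched 4 of the 22 (18.2%) and 8.85% of all 32851 windows of this length. AGGTCA matched 6 of the 22 (27.3%) and 16.3% of all windows. Of the 11 Hox genes that fell in the shelves, 6 had a window, and Hoxb2, Hoxb3, Hoxa4, Hoxb5 and Hoxc6 had none. AGGTCA matched 4 of these 6 windows, those of Hoxa5, Hoxd3, Hoxb4 and Hoxc4. Among the 16 windows of the 14 other Hox genes it matched 2, those of Hoxd8 and Hoxd10. TGATNNAT matched 1 of the 6 windows and 3 of the 16. CCAAT, also searched, matched 14 of the 22 (63.6%) against 37.4% of all windows, and TATAAA 3 of the 22, a share close to that over all windows (4473 of 32851). For genes that fell and for the others, CCAAT matched 4 of 6 and 10 of 16 windows, and TATAAA 0 of 6 and 3 of 16. Differences between these sets of windows were not tested for any motif. Hox windows had a median of 17 CpG dinucleotides, against 7 over all windows, and a median GC content of 58.7% against 52.7%. A match is a description of these letters and does not show a bound site.

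In the palatal shelves no Hox gene reached the array median, whereas in the head 6 did in WT and 4 in KO. In WT heads these were Hoxa2, Hoxb3, Hoxd3, Hoxa4, Hoxa5 and Hoxb5, and in KO heads Hoxa2, Hoxb3, Hoxa4 and Hoxb5. The gene with the highest number above the median was thus of paralogue group 5 in both head arrays. In groups 6 to 13 no gene reached the median on any array. A second mark came from 1390 olfactory and vomeronasal receptor genes, most of which are silent in most cells. Their 95th percentile lay between 5.20 and 5.46 on the 4 arrays. Above it were 5 Hox genes in KO shelves and 4 in WT shelves, and 12 in KO heads and 11 in WT heads. The shelf genes above it were Hoxa4, Hoxb5, Hoxa6 and Hoxd10 on both arrays and Hoxd8 on the KO array. The head genes above it on both arrays were Hoxd1, Hoxa2, Hoxb2, Hoxb3, Hoxd3, Hoxa4, Hoxa5, Hoxb5, Hoxa6, Hoxd8 and Hoxd10. Hoxc13 was above it on the KO head array alone. The highest paralogue group above a mark in the heads thus depended on the mark. Above the 99th percentile of the receptor genes there was no Hox gene on either shelf array, and on the head arrays the same genes as above the median.

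**Figure D1:**
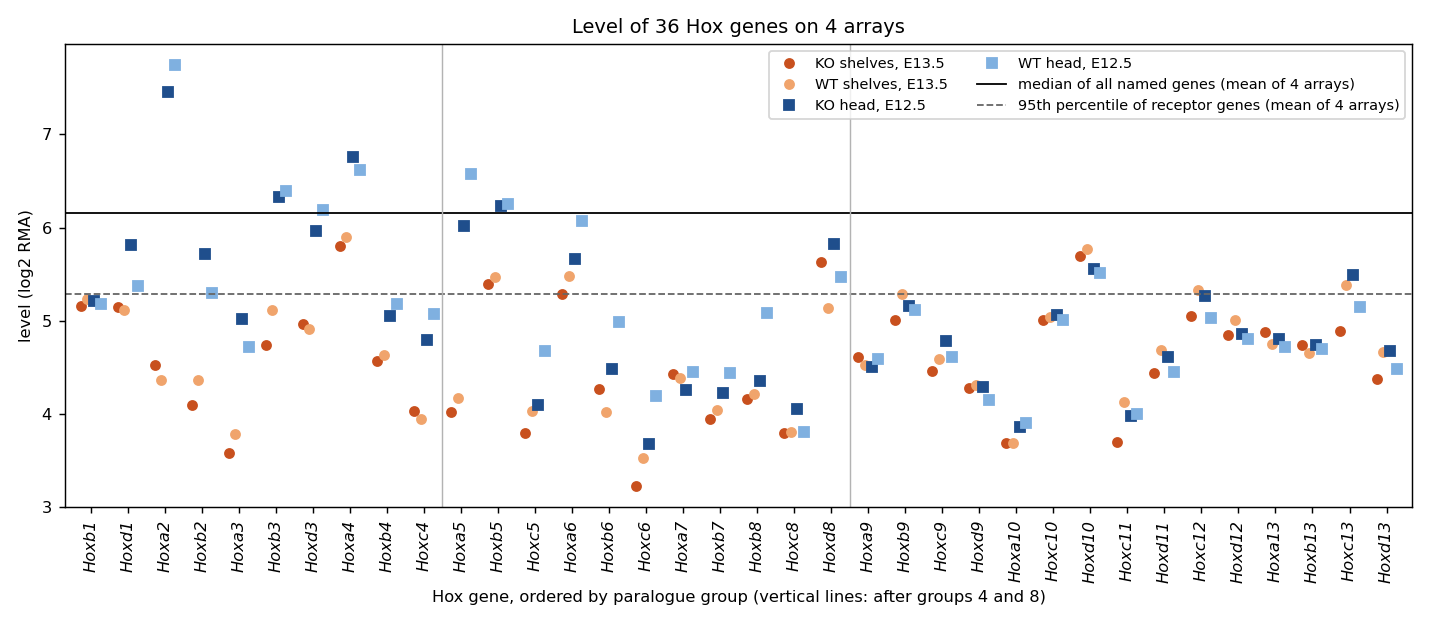
Log2 level of 36 Hox genes (horizontal axis, by paralogue group) on the 4 arrays, with circles for palatal shelves, squares for heads, a solid line for the median of all named genes and a dashed line for the 95th percentile of receptor genes, both as means over the 4 arrays. Head levels of Hoxa2, Hoxb3, Hoxa4 and Hoxb5 lie above the solid line on both arrays, and no shelf level does.

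The difference between shelves and head was tested for all 22180 named genes in 1 additive limma fit of tissue and genotype, with Benjamini-Hochberg adjustment and 1 residual degree of freedom, so that a gene's error rests largely on a prior from all genes. At an adjusted p under 0.05, 11 of the 36 Hox genes (30.6%) fell in the shelves and 0 rose. Over all named genes 6.13% fell and 5.02% rose. The genes that fell were Hoxa2, Hoxb2, Hoxa3, Hoxb3, Hoxd3, Hoxa4, Hoxb4, Hoxc4, Hoxa5, Hoxb5 and Hoxc6. By number, 8 of 10 genes in groups 1 to 4 fell, 3 of 11 in groups 5 to 8 and 0 of 15 in groups 9 to 13. The median log2 difference, shelves minus head, was -1.04, -0.49 and 0.0082 in those 3 ranges, and 0.00096 over all named genes. In bulk samples fewer cells of a type and less RNA per cell cannot be told apart.

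**Figure D2:**
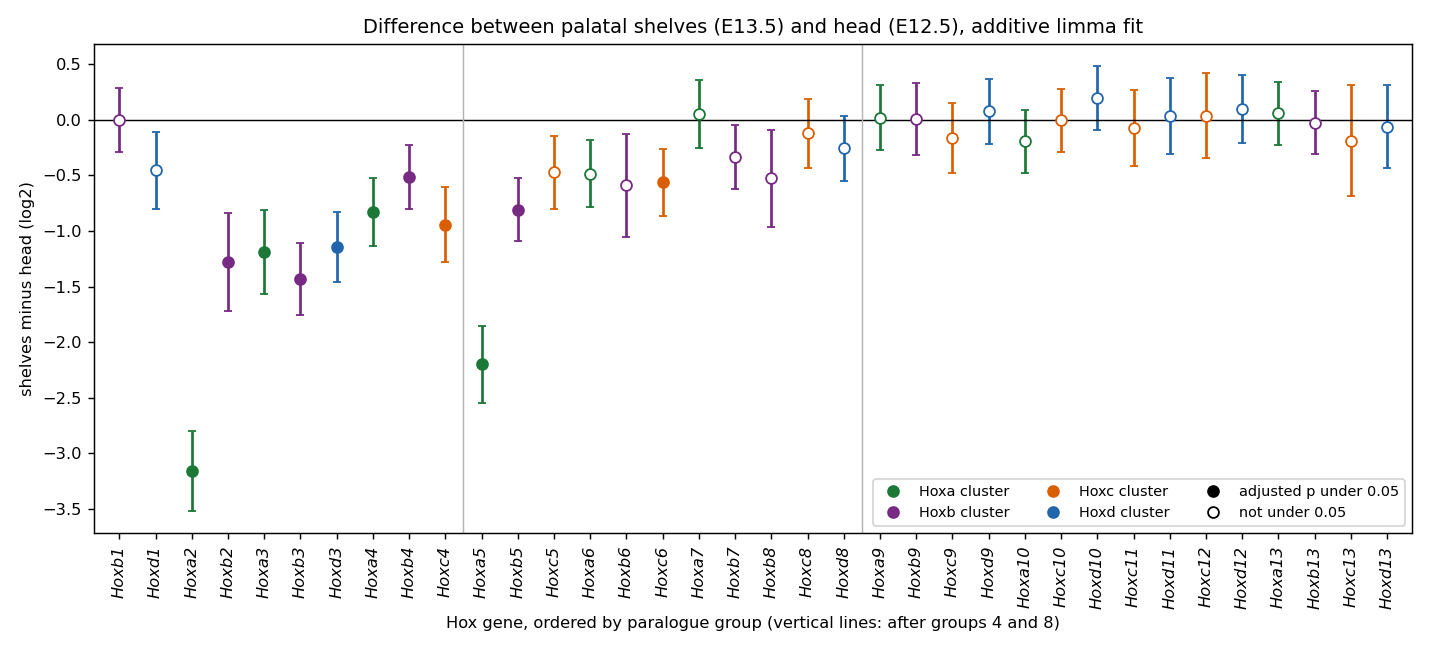
Shelves minus head difference on the log2 scale for each Hox gene, by paralogue group, with its 95% interval from the limma fit and a colour for each Hox cluster; filled points passed an adjusted p of 0.05. Filled points run from Hoxa2 (-3.16) to Hoxc6 (-0.56), and from group 7 on no point is filled.

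The genes of paralogue group 2 set the forward end of the pattern. Hoxa2, which gives the second arch crest its identity and is expressed furthest forward in the hindbrain, was at 4.52 in KO shelves and 4.36 in WT shelves, against 7.45 in KO heads and 7.75 in WT heads. The groups did not overlap, and the gene stood at percentiles 23.9 and 20.5 of named genes in KO and WT shelves and at percentiles 69.4 and 73.9 in KO and WT heads. The fitted shelf level was 8.91-fold lower (log2 difference -3.16, SE 0.15, limma adjusted p = 0.00044). Both shelf values lay below the 95th percentile of receptor genes, as they did for 9 of the 11 genes that fell, all but Hoxa4 and Hoxb5. The folds of these 9 are differences of array signal and depend on the background of the probes. For 4 of the 9, Hoxa3, Hoxb4, Hoxc4 and Hoxc6, both head values lay below that mark too. Hoxb2, a gene of the facial motor neuron territory, was at 4.10 in KO shelves and 4.37 in WT shelves, against 5.72 in KO heads and 5.30 in WT heads. It was 2.42-fold lower (SE 0.18 on the log2 scale, limma adjusted p = 0.0084), and on all 4 arrays it was below the array median.

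All 3 measured genes of group 3, which act in the caudal hindbrain and in the arches that form the hyoid, thymus and parathyroid, fell in the shelves. Hoxb3 was at 4.73 in KO shelves and 5.12 in WT shelves, against 6.33 in KO heads and 6.39 in WT heads. Hoxd3 was at 4.96 in KO shelves and 4.91 in WT shelves, against 5.96 in KO heads and 6.19 in WT heads. Hoxa3, needed for the thymus in mice, was at 3.58 in KO shelves and 3.78 in WT shelves, against 5.02 in KO heads and 4.72 in WT heads. No shelf value of these 3 genes reached a head value, and the shelf levels were 2.70-fold lower for Hoxb3, 2.21-fold for Hoxd3 and 2.28-fold for Hoxa3, with limma adjusted p of 0.0021, 0.0039 and 0.0061.

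Group 4, whose genes pattern the border of hindbrain and spinal cord and the neck vertebrae, also fell in all 3 measured members. Hoxa4 was at 5.81 in KO shelves and 5.90 in WT shelves, against 6.75 in KO heads and 6.62 in WT heads, a difference of -0.83 (SE 0.12). Hoxc4 was at 4.03 in KO shelves and 3.94 in WT shelves, against 4.79 in KO heads and 5.07 in WT heads, a difference of -0.94 (SE 0.14). Hoxb4 was at 4.57 in KO shelves and 4.63 in WT shelves, against 5.05 in KO heads and 5.18 in WT heads, a difference of -0.51 (SE 0.12). Limma adjusted p was 0.010 for Hoxa4, 0.0093 for Hoxc4 and 0.043 for Hoxb4. The call for Hoxb4 was lost with arrays centred on their medians (adjusted p = 0.0504) and with a mean-variance trend in the prior (adjusted p = 0.0544).

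In group 5, 2 of 3 genes fell. Hoxa5, which acts in the neck, the lung and the phrenic motor neurons, was at 4.02 in KO shelves and 4.17 in WT shelves, against 6.02 in KO heads and 6.57 in WT heads. Its shelf level was 4.6-fold lower (log2 difference -2.20, SE 0.14, limma adjusted p = 0.00077), and only the WT head value lay above the array median. Hoxb5 averaged 5.40 in KO shelves and 5.47 in WT shelves, against 6.23 in KO heads and 6.26 in WT heads, and was 1.75-fold lower (limma adjusted p = 0.0089). Its 2 clusters disagreed. The brighter read 5.45 in KO shelves and 5.69 in WT shelves, against 7.04 in KO heads and 7.20 in WT heads, and the other read between 5.25 and 5.41 on every array. With the brighter cluster alone the difference was -1.56. Hoxc5, which acts with Hoxa5 in phrenic motor neurons, was at 3.80 in KO shelves and 4.03 in WT shelves, against 4.09 in KO heads and 4.68 in WT heads (limma adjusted p = 0.084), and did not pass.

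From group 6 the difference in the additive fit thinned out, and the 2 genotypes were unlike. In groups 5 to 8, 7 of 11 genes were at least 1.5-fold lower in WT shelves than in WT heads (6.47% of named genes). In KO shelves against KO heads 2 were (6.35% of named genes). The median difference in group 6 was -0.67 between the WT arrays and -0.38 between the KO arrays, with no test. Hoxc6, a gene of forelimb-level motor neurons, was at 3.23 in KO shelves and 3.52 in WT shelves, against 3.68 in KO heads and 4.20 in WT heads, and was the one gene of this group to pass (difference -0.56, SE 0.12, limma adjusted p = 0.038). The call was lost with quantile normalization again (adjusted p = 0.0534) and without a genotype term (adjusted p = 0.149). Hoxa6 was at 5.29 in KO shelves and 5.48 in WT shelves, against 5.66 in KO heads and 6.07 in WT heads, with a difference of -0.49 and a limma adjusted p of 0.061. Hoxb6 had a difference of -0.59 and a limma adjusted p of 0.116.

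In groups 7 and 8 no gene passed, although Hoxb7 (-0.34) and Hoxb8 (-0.53) lay lower in both shelf arrays than in both head arrays. Hoxa7, Hoxc8 and Hoxd8 had differences of 0.053, -0.12 and -0.26, and their groups overlapped. Across the 15 genes of groups 9 to 13 the differences ran from -0.19 (Hoxa10) to 0.19 (Hoxd10). These genes pattern the trunk behind the forelimb, the limbs and the tail. The 95% intervals of their differences ran from -0.69 at the lowest bound (Hoxc13) to 0.48 at the highest (Hoxd10). None of these intervals reached a 2-fold difference of array signal. Of the 15 genes, 13 in KO heads and 14 on each other array lay below the 95th percentile of receptor genes. At such levels the intervals cannot exclude a 2-fold difference of RNA. Hoxa13 and Hoxd13, genes of digits and genital tubercle, were at 4.88 and 4.37 in KO shelves, 4.75 and 4.67 in WT shelves, 4.81 and 4.68 in KO heads, and 4.71 and 4.48 in WT heads. Below the array median folds are compressed, and a gene with no RNA keeps a level set by its probes.

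At the head end of the series the pattern broke off at group 1. Hoxb1, which marks a single segment of the early hindbrain, was at 5.16 in KO shelves and 5.23 in WT shelves, against 5.22 in KO heads and 5.18 in WT heads, and its 95% interval was -0.29 to 0.28. Hoxd1, known in mice for its part in sensory neurons of the pain pathway, was at 5.15 in KO shelves and 5.11 in WT shelves, against 5.81 in KO heads and 5.37 in WT heads. Its head values were both above its shelf values, but it did not pass (difference -0.46, limma adjusted p = 0.106).

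Counted over all Hox genes, 19 of 36 had both shelf values below both head values and 1, Hoxd10, had both above. Over all named genes 28% were below in this way and 27.4% above. The 19 were 9 of the 10 genes in groups 1 to 4, 8 of the 11 in groups 5 to 8 and 2 of the 15 in groups 9 to 13. In 2 comparisons within a genotype, which have 1 array a side and no test, 5 Hox genes were at least 2-fold lower in KO shelves than in KO heads (2.41% of named genes were) and 5 in WT shelves than in WT heads (3.03% of named genes). Hoxa2, Hoxa5 and Hoxb3 were in both counts, Hoxb2 and Hoxa3 in KO embryos, and Hoxd3 and Hoxc4 in WT embryos. No Hox gene was 2-fold higher in either, where 1.59% of named genes were in KO and 1.82% in WT embryos. At 1.5-fold, 11 Hox genes were lower in KO shelves (6.35% of named genes) and 14 in WT shelves (6.47%), and 0 were higher (5.25% of named genes in KO and 5.71% in WT embryos). Hoxd3 in KO embryos, with a difference of -0.999, lay just short of 2-fold.

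Between genotypes no Hox gene passed the test. In the additive fit 0 of 36 Hox genes passed an adjusted p of 0.05 in limma for KO minus WT, as did 0% of named genes. The targeted gene Tbx1 did not pass either (log2 coefficient -0.89, limma adjusted p = 0.997). A gene that does not pass here is therefore not shown to be unchanged. With a mean-variance trend in the prior 0 Hox genes passed, against 0.0316% of named genes. At an unadjusted limma p under 0.05 there were 4 Hox genes, all in groups 5 to 8, where 4.87% of named genes were. These were Hoxd8 (log2 coefficient 0.43), Hoxc6 (-0.41), Hoxc5 (-0.41) and Hoxa5 (-0.35). Their limma adjusted p was 0.997.

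In the E12.5 head the genes of groups 5 to 8 were lower in the KO array in 9 of 11 cases, with a median log2 difference of -0.41. Over all named genes 10595 of 22180 were lower. The medians were -0.012 in groups 1 to 4, 0.062 in groups 9 to 13 and 0.0089 over all named genes. These are differences between 2 arrays, with no replicate check. Of the 11 genes in groups 5 to 8, 7 lay below the 95th percentile of receptor genes on each head array. Hoxb8, a gene of the forelimb level and of the spinal cord, was at 4.35 in KO heads and 5.08 in WT heads, a difference of -0.73, and was the 1 Hox gene at least 1.5-fold lower (0.528% of named genes were). None was 1.5-fold higher (0.798% of named genes), and none differed by 2-fold (0.0406% lower and 0.0451% higher). Next came Hoxc5 (-0.58), Hoxa5 (-0.55), Hoxc6 (-0.52), Hoxb6 (-0.50) and Hoxa6 (-0.41). Hoxd8 (0.36) and Hoxc8 (0.24) were the 2 members of these groups that were higher in KO heads.

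Further forward the KO head array was higher for some genes and lower for others. Hoxd1 (0.44), Hoxb2 (0.42), Hoxa3 (0.30), Hoxa4 (0.13) and Hoxb1 (0.037) were higher in KO heads. Hoxa2 (-0.29), Hoxc4 (-0.28), Hoxd3 (-0.23), Hoxb4 (-0.14) and Hoxb3 (-0.060) were lower. The SD of the difference over all named genes was 0.202. Marker lists were read on the same arrays. The median KO minus WT difference in the head was -0.062 for 23 hindbrain and spinal cord genes, -0.059 for 18 genes of occipital somites and muscle progenitors and 0.012 for 17 pan-neuronal genes. Single members differed more, with a range of -0.86 to 0.39 and 14 of 23 below 0 in the hindbrain and spinal cord list, and a range of -0.64 to 0.28 and 10 of 18 below 0 in the somite and muscle list. The summed linear level of the hindbrain and spinal cord list was 3497 in KO heads and 3545 in WT heads, with 6 members below the 95th percentile of receptor genes on each. The brightest member weighs most in these sums. It was Zic1, a zinc finger factor of the dorsal neural tube, at 10.42 in KO heads and 10.38 in WT heads. Whether the place of the cut or the share of neck tissue differed between these heads was not tested.

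**Figure D3:**
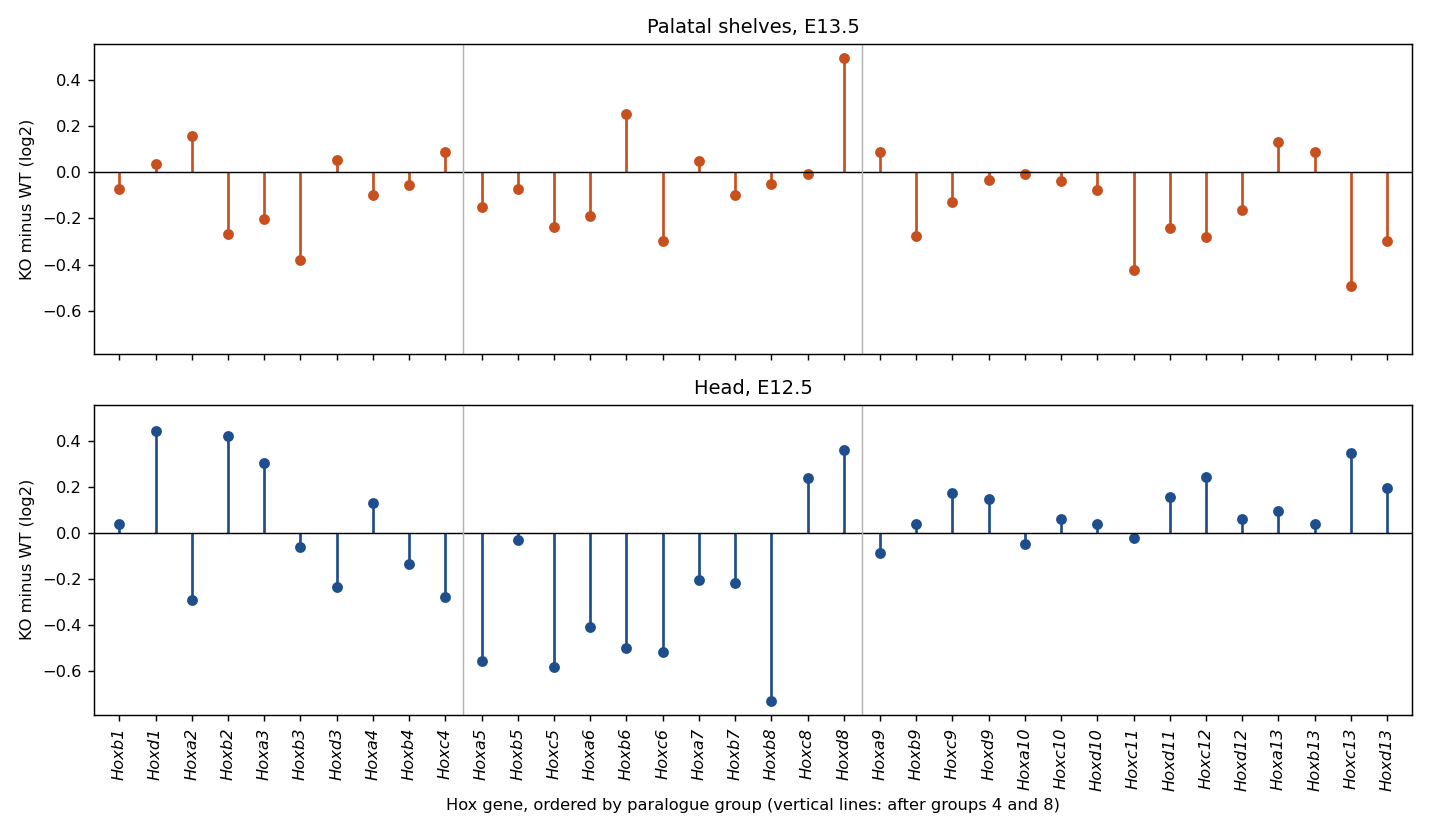
KO minus WT difference on the log2 scale for each Hox gene, by paralogue group, in palatal shelves at E13.5 (top) and heads at E12.5 (bottom), 1 array per group and no error bars. In the head most points of groups 5 to 8 lie below 0, down to -0.73 for Hoxb8, and in the shelves points scatter from -0.49 (Hoxc13) to 0.50 (Hoxd8).

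In the E13.5 palatal shelves no Hox gene differed by 1.5-fold between KO and WT, where 1.86% of named genes were lower and 1.71% higher, and 0.352% were lower and 0.316% higher by 2-fold. The differences ran from -0.49 for Hoxc13 to 0.50 for Hoxd8, with a median of -0.075 over the 36 genes and -0.0068 over all named genes. Hoxd8 was at 5.63 in KO shelves and 5.14 in WT shelves, and of the 2 shelf arrays it passed the receptor mark on the KO array alone. In the same KO shelf array 16 of 17 pan-neuronal genes were higher than in WT shelves, with a median difference of 0.61. The summed linear level of that list was 6220.5 in KO shelves and 4165 in WT shelves, against 19333 in KO heads and 19276 in WT heads, and 1 member lay below the receptor mark on each shelf array. For the hindbrain and spinal cord list the sum was 1164 in KO shelves and 1039 in WT shelves, against 3497 and 3545 in KO and WT heads, with 14 and 16 of its 23 members below the receptor mark in KO and WT shelves. Its median KO minus WT difference in the shelves was -0.011, with 12 of 23 members below 0. Zic1 had a difference of 1.79 there, at 7.49 in KO shelves and 5.70 in WT shelves. It was the brightest member of the list in KO shelves, and the sums weigh bright members most. The part of neural tissue in the Hox differences was not tested. The 11 Hox genes lower in the shelves had a median KO minus WT difference of -0.097 there.

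Partners and controls of Hox genes were summarised from lists. Of 9 measured cofactors, which bind DNA together with Hox proteins, 3 fell in the shelves and 0 rose, with a median difference of -0.26, where 6.13% of named genes fell and 5.02% rose. Meis3, a hindbrain member of the family, was at 6.88 in KO shelves and 6.70 in WT shelves, against 7.86 in KO heads and 7.85 in WT heads (difference -1.06, limma adjusted p = 0.0040). Pknox2 (-0.72) and Pbx3 (-0.66) fell too. Meis1 was at 9.49 in KO shelves and 9.59 in WT shelves, against 9.57 in KO heads and 9.77 in WT heads, and did not pass. The cofactors were thus all read above the receptor mark on all 4 arrays, shelves included.

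Retinoic acid, made from vitamin A, is known to switch on Hox genes of low number in the hindbrain. Of 17 measured genes of its synthesis, breakdown and response, 5 rose in the shelves and 2 fell. Aldh1a2, the main enzyme of retinoic acid synthesis in the embryo, was at 9.67 in KO shelves and 9.47 in WT shelves, against 8.51 in KO heads and 8.52 in WT heads (difference 1.06, limma adjusted p = 0.0044). Cyp26c1, an enzyme that breaks retinoic acid down, rose by 0.89, and Dhrs3, a retinal reductase, by 0.81. Rxrg, a retinoid X receptor, fell by 0.75 on the log2 scale. Genes of synthesis and of breakdown were thus among those that rose.

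Of 14 measured genes listed as upstream segmentation and caudal factors, 1 fell in the shelves (7.14%, near the 6.13% of named genes) and 0 rose. The one that fell, Vgll3 (-0.96), encodes a cofactor of TEAD factors and is no known hindbrain segmentation gene. Gbx2, a gene of the border of midbrain and hindbrain, had a difference of -0.61 (limma adjusted p = 0.058). Of 21 Polycomb and trithorax genes, whose products keep Hox genes silent or active, 2 fell (9.52%, against 6.13% of named genes) and 0 rose. These were Phc1 (-0.61) and Phc2 (-0.52), which encode polyhomeotic proteins.

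Of 29 measured genes that flank the Hox clusters, 1 fell and 1 rose, with a median difference of -0.060, where 6.13% of named genes fell and 5.02% rose. The difference between these neighbours and the Hox genes was not tested. Evx2, a homeobox gene beside Hoxd13, fell (-0.52, limma adjusted p = 0.046) and Nfe2l2, a stress response factor near the Hoxd cluster, rose (0.51, limma adjusted p = 0.042). Skap2, next to the Hoxa cluster, was at 5.52 in KO shelves and 6.03 in WT shelves, against 6.26 in KO heads and 6.33 in WT heads, and did not pass (limma adjusted p = 0.083).

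Noncoding RNAs of the Hox clusters lay below the array median on all 4 arrays. Of 7 measured, 0 passed, and 0.40 for Mir615 was the largest difference in size. Hoxaas3 was at 5.21 in KO shelves and 5.13 in WT shelves, against 5.27 in KO heads and 5.64 in WT heads. The clusters also hold the genes of miR-10 and miR-196, which are known to act on Hox messages, and their mature sequences (RefSeq, GRCm38.p6) are given here with the seed, bases 2 to 8, in capitals. The array probes read the locus and not the mature form.
miR-10a-5p: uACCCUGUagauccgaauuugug
miR-10b-5p: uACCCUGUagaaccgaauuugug
miR-196a-5p: uAGGUAGUuucauguuguuggg
miR-196b-5p: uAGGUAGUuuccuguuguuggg

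The members of each pair share 1 seed. Mir10b was at 2.66 in KO shelves and 2.44 in WT shelves, against 2.77 in KO heads and 2.66 in WT heads. Mir196a-1 was at 3.67 in KO shelves and 3.51 in WT shelves, against 3.81 in KO heads and 3.89 in WT heads. Both lay well below the receptor mark on every array, and Mir10b lies in the Hoxd cluster near Hoxd4, and Mir196a-1 in the Hoxb cluster near Hoxb9.

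Lists of neural and caudal tissue fell in the shelves along with the Hox genes. Of 23 hindbrain and spinal cord genes 13 fell and 0 rose, with a median difference of -0.62, of 22 forebrain and midbrain genes 16 fell and 1 rose (median -1.16), and of 17 pan-neuronal genes 17 fell (median -1.91). Of 15 genes of cranial and dorsal root ganglia 6 fell and 2 rose, with a median of -0.39. Olig3, a factor of the dorsal hindbrain and spinal cord, was at 4.25 in KO shelves and 4.65 in WT shelves, against 7.37 in KO heads and 7.66 in WT heads. The forebrain gene Tbr1 was at 5.01 in KO shelves and 4.56 in WT shelves, against 7.86 in KO heads and 7.73 in WT heads.

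Outside the nervous system, 6 of 18 genes of occipital somites and muscle progenitors fell and 2 rose. Among them Tbx18, a gene of somites and head mesenchyme, fell by 1.52 on the log2 scale and Uncx, a factor of the rear part of each somite, fell by 1.55, while Meox2 rose by 1.58. Of 18 genes of the second arch and pharyngeal region 2 fell and 6 rose. Sim2, Pax9 and Barx1, which were among the 6, also stand in the palate list, and Tbx1 itself is a listed member. Hand2, a gene of the ventral arches, was at 5.62 in KO shelves and 5.94 in WT shelves, against 6.96 in KO heads and 7.03 in WT heads. How much of the lower Hox level in the shelves goes with less neural tissue and how much with arch or neck mesenchyme was not tested.

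**Figure D4:**
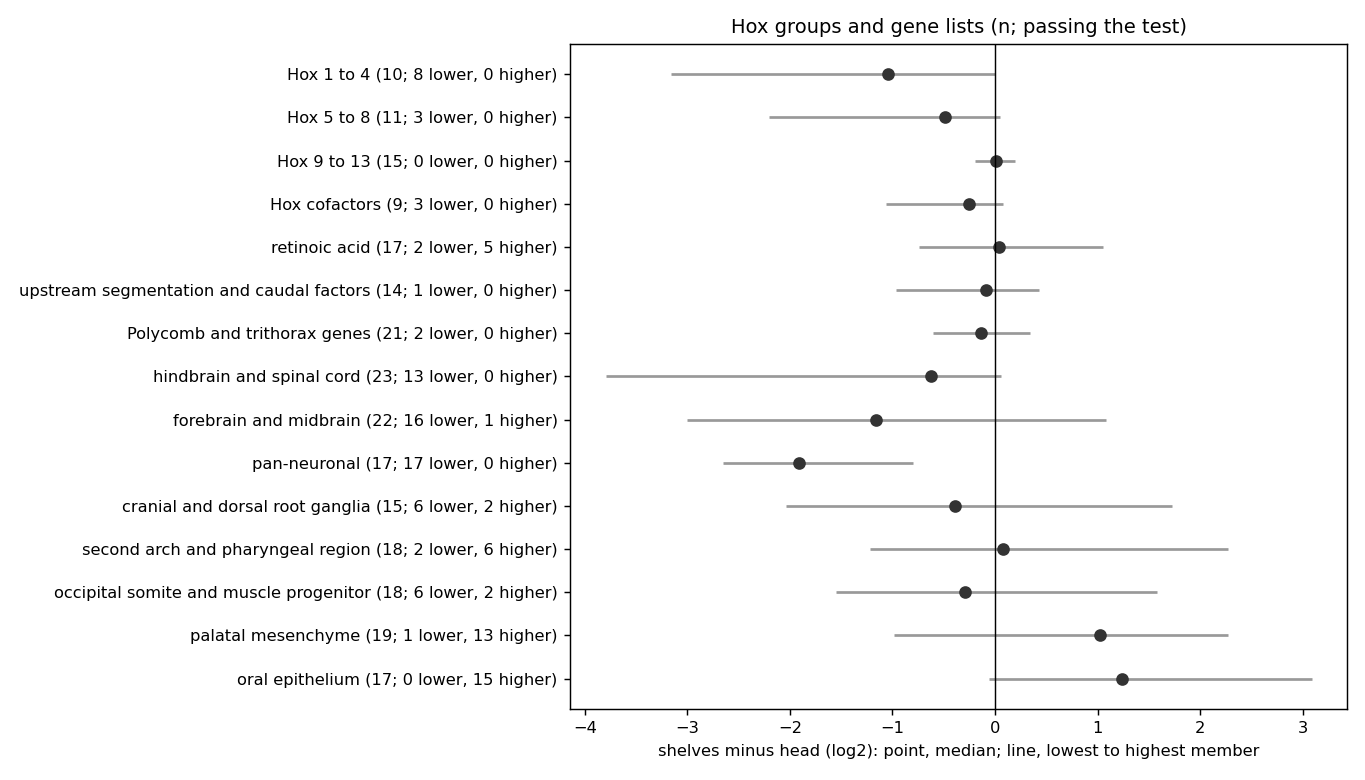
Shelves minus head difference on the log2 scale (point, median; line, lowest to highest member) for 3 ranges of Hox paralogue groups and for other gene lists, with the number of measured members and of those that passed the test each way. The median of Hox groups 1 to 4 (-1.04) lies near that of the forebrain and midbrain list (-1.16), and that of Hox groups 9 to 13 at 0.0082. The medians of the palate and oral epithelium lists lie above 0, with lowest members at -0.99 and -0.055.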

How the data were processed

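The authors deposited 1 log2 level for each transcript cluster and array. RMA and Affymetrix Expression Console are the tools named, per the submitters' processing notes. Their versions, the genome build and the annotation were not given in the sources used here. Frozen tissue gave total RNA through TRIzol and an RNeasy column, per the labels' protocols. Groups follow the sample titles, and 1 other label field calls the E13.5 samples heads. The members and lists were chosen with earlier results of these data known. The labels do not say whether samples came from separate embryos, so p-values describe these arrays.

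Names came from the annotation of the array platform. Among 41345 clusters, 23521 carried 1 symbol, 1814 several and 16010 no listed gene, and 23328 matched the RefSeq table of GRCm38.p6, used for names. Clusters of a gene were averaged, giving 22180 genes, all of which entered, so that every Hox gene had a value. limma 3.58.1 in R 4.3.3 fitted tissue and genotype together (lmFit, eBayes), and its prior had 5.14 degrees of freedom and an SD of 0.127. Within a pair, differences were counted from 2-fold with no test. Every Hox gene could be named, and up to 4 genes of other lists by size of the tissue difference and 2 by genotype. The fit was tested on simulated data for shelves minus head over 22180 genes in 5 runs. Planted changes of 1 on the log2 scale were found in 84.8% of cases and changes of 2 in 100%. False calls made up 84 of the 1008, above the 5% intended. Alternatives were scalings between arrays, the brightest cluster, filters on dim genes, other priors, other thresholds and other marks.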

Additional observations from a re-analysis of the deposited data

Results flagged for a closer look

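For 3 Hox genes the KO minus WT difference had opposite signs in shelves and head and was larger in each than the SD over all named genes (0.266 in the shelves and 0.202 in the head). Hoxb2 had a difference of -0.27 in the shelves and 0.42 in the head. Hoxc12 had -0.28 in the shelves and 0.24 in the head. Hoxc13, a gene of hair and nail, had -0.49 in the shelves and 0.34 in the head. Each rests on 1 array per group, and the difference between the tissues was not tested. All 3 genes lay below the median of named genes on all 4 arrays.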

How the results depend on the processing

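No paired analysis was possible because the labels carry no replicate numbers and each group has 1 array. For the same reason no array could be left out of the additive fit, which would then have no residual degree of freedom. Of the 11 Hox genes lower in the shelves, 9 passed under every alternative in which they entered, and Hoxb4 and Hoxc6 did not. Hoxa6 passed with cyclic loess (-0.51). When a level of 6.16, the median of named genes across arrays, had to be reached on some array, 6 Hox genes entered and 6 passed. Of all 11999 genes that entered, 3342 passed in either direction. The 6 Hox genes reached that level on head arrays alone. The filter thus favoured Hox genes that were higher in the head, and this count adds no support. With an upper-quartile filter (7.79) 0 Hox genes entered, since the highest Hox level on any array was 7.75 (Hoxa2 in WT heads). The genotype count stayed at 0 under every alternative, for a test that Tbx1 itself did not pass in the main fit. At 1.5-fold, 1 Hox gene differed by genotype in the head. At least 2-fold between WT shelves and WT heads were 8 genes with quantile normalization again and 8 with cyclic loess, 14 at 1.5-fold and 2 at 3-fold, and between KO shelves and KO heads 11 at 1.5-fold and 2 with the filter on dim genes. Against the median of all clusters, 2 Hox genes lay above the mark in KO shelves, 2 in WT shelves and 10 in KO heads. Against the upper quartile 0 did in KO heads and 0 in WT heads, and against the 95th percentile of receptor genes 5 in KO shelves, 4 in WT shelves, 12 in KO heads and 11 in WT heads. Differences near 0 changed sign between shelves and head with arrays centred on their medians (Hoxb1 0.012, Hoxc10 0.0095), with quantile normalization again (Hoxa9 -0.010, Hoxb9 -0.0048, Hoxd11 -0.0060) and with cyclic loess (Hoxa9 -0.010, Hoxb9 -0.024), and none of these passed the test.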

Other observations

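Clusters annotated to 2 genes entered no comparison. The cluster annotated to both Hoxb3 and Hoxb2 was at 5.04 in KO shelves and 5.26 in WT shelves, against 6.03 in KO heads and 6.04 in WT heads. The cluster annotated to both Hoxd4 and Hoxd3 was at 5.37 in KO shelves and 5.60 in WT shelves, against 5.92 in KO heads and 5.84 in WT heads. The cluster annotated to Hoxa3 and a neighbouring transcript was at 5.53 in KO shelves and 5.74 in WT shelves, against 6.03 in KO heads and 6.36 in WT heads. In these 3 clusters both shelf values lay below both head values, as they did for 28% of named genes. The cluster annotated to Mir10a and Hoxb4 was at 2.62 in KO shelves and 2.51 in WT shelves, against 2.70 in KO heads and 2.71 in WT heads. The cluster annotated to Mira and Hoxa7 was at 3.90 in KO shelves and 4.18 in WT shelves, against 4.06 in KO heads and 3.78 in WT heads, and its groups overlapped. The clusters annotated to Hoxa11 together with its antisense RNA were at 3.88 and 4.68 in KO shelves, 3.92 and 5.03 in WT shelves, 3.76 and 5.18 in KO heads, and 3.94 and 5.09 in WT heads.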
